A study of Mus musculus with 12 samples.

Results

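Liver RNA of HESKOL mice was compared with that of wild-type mice 6 hours after dexamethasone, on 6 of the 12 one-colour arrays of the study: all 3 arrays whose titles carry both HESKOL and dexamethasone, and all 3 whose titles carry both wild type and dexamethasone. Every mouse was a male of strain C57BL/6, 8 to 10 weeks old and adrenalectomized, and each of the 6 had received dexamethasone, a synthetic glucocorticoid, at 1 mg/kg into the peritoneum. The other 6 arrays, 3 of HESKOL and 3 of wild-type mice without dexamethasone, entered through the shared estimate of the spread and as a comparison; no vehicle injection is described for those mice. The labels call HESKOL a knockout mouse, and the title of the study names Hes1, but they do not spell out the abbreviation, the altered part of the gene, or the promoter or cell type in which it was altered. All genes on the array were members of the comparison: of 27920 genes and unnamed probes, 18745 were bright enough to test.

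Hes1 is a basic helix-loop-helix repressor that the Notch receptors switch on, and it silences genes by binding short DNA elements (N boxes, E boxes and class C sites) and recruiting Groucho/TLE corepressors. Glucocorticoids act through the receptor Nr3c1, which in hepatocytes switches on genes of glucose output and amino acid breakdown and holds down cytokine genes. Adrenalectomy removes the animals' own source of corticosterone.

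Each value below is the log2 of a signal over the 75th percentile of its array, so a difference of 1 is a doubling, and changes are HESKOL minus wild type with their standard error (SE). Rises and falls are likewise of HESKOL against wild type after the same treatment, not against untreated liver. The promoters of 5 genes are shown, those among the largest changes with the smallest p that the RefSeq table (GRCm38.p6) lists, to show the sequence beside the starts of genes that changed in a study of a DNA-binding repressor. Each runs 5′ to 3′ on the strand of the gene, from 250 bases before to 50 after the start, with the N box CACNAG in capitals on either strand (CTNGTG on the other).
Cux2: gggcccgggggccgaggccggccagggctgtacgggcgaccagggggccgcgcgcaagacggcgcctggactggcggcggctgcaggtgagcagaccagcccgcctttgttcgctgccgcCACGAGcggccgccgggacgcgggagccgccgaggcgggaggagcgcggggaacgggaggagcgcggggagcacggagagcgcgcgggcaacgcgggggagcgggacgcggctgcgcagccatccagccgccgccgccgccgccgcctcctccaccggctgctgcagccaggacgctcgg
Cdc42ep5: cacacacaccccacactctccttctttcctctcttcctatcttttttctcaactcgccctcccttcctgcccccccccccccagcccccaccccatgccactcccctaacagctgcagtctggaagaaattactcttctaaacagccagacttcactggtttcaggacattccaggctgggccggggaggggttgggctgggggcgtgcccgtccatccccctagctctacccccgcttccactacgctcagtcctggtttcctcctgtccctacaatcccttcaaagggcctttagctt
Il1b: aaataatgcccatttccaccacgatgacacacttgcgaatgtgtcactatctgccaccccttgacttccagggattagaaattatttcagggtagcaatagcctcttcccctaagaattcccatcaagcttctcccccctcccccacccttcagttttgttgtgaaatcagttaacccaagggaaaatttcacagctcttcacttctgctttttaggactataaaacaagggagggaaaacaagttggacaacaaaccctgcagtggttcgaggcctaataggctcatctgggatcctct
Ptgfr: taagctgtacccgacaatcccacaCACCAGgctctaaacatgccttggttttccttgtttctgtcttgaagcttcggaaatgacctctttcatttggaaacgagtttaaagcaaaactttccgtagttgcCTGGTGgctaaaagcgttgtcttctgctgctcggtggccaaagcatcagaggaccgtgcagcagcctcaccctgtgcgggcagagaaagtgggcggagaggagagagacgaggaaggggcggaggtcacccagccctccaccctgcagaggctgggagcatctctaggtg
Serpina12: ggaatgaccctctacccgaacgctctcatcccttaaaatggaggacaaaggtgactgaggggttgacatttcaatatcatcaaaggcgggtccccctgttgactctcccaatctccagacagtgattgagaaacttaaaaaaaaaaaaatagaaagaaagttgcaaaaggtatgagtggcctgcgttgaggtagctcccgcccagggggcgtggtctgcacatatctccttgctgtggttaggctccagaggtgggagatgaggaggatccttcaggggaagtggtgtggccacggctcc
They lie on the minus strand at chr5:122049802-122050101, chr7:4164656-4164955, chr2:129371090-129371389, chr3:151837479-151837778 and chr12:104044394-104044693, in the order shown. The Cux2 window, the first of 2 that the table lists for this gene, held 1 N box, the Ptgfr window held 2, and the other 3 windows held no match to these letters. Of the 30 genes with the largest changes, 24 had a listed promoter and 10 of these held an N box, 7 of 12 among genes higher in HESKOL and 3 of 12 among genes lower, while 42.5% of all 32851 listed promoters held one. The E box CANNTG was in 16 of the 24 and in 72.3% of all, the class C site CACGCG in 3 and in 9.27% of all, and the glucocorticoid receptor hexamer AGAACA in 3 and in 19.0% of all (both strands searched, and 1 stretch can belong to matches of more than 1 motif). A match is a description of letters, not a binding site.

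Between 65.0% and 68.6% of probes were well above background on the treated arrays, and their 75th percentiles lay between 897 and 1415 intensity units. All 15 hepatocyte markers on the array were well above background in all 6 treated livers. The wild-type liver labelled replicate 1 stood apart: on the first principal component of the treated arrays (41.7% of the variance) it lay at 107, with the other 5 between -49.8 and 8.53. Its root mean square deviation from its group was 0.995, against 0.463 to 0.799 for the rest of the series. On the first component of all 12 arrays (38.5% of the variance) replicate 1 lay at -35.9, within the range of the untreated arrays (-74.2 to -8.02). The other 5 treated arrays lay between 29.7 and 86.4 on it, and the reason was not tested. The 3 HESKOL livers shared a slide with wild-type replicate 3, whereas wild-type replicates 1 and 2 were on another slide, so a fit with slide as a block rests on wild-type replicate 3 alone. Results are therefore given with and without replicate 1, and within the shared slide.

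Hes1 itself averaged -3.32 ± 0.47 (SD, n = 3) in HESKOL livers and -2.22 ± 0.93 (SD, n = 3) in wild-type livers. Single livers read -3.08, -3.02 and -3.85 in HESKOL, against -1.16, -2.57 and -2.92 in wild type; the groups did not overlap, but the highest wild-type value was that of replicate 1. HESKOL stood at 46.7% of the wild-type signal (change -1.10, SE 0.43, limma adjusted p = 0.249; two-sided exact permutation p = 0.1, the lowest possible with 3 arrays in each group). Within the shared slide the change was -0.40, and without wild-type replicate 1 it was -0.57. In the livers without dexamethasone HESKOL stood at 46.1% of the wild-type signal (two-sided exact permutation p = 0.1), where limma called no gene. The single probe lies on chromosome 16 from 29738743 to 29739038 of mm7 and may be outside the altered part of the gene, so it checks the genotype labels only in part.

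After dexamethasone 214 of the 18745 genes and unnamed probes differed between the genotypes (1.14% of those tested; limma, Benjamini-Hochberg adjusted p under 0.05), 130 higher in HESKOL (0.694%) and 84 lower (0.448%). Of these, 166 carry a gene name. The groups of 3 did not overlap for any of the 214, and they did not overlap for 18.2% of all genes tested. Most changes were large: 209 were at least 2-fold, 99 at least 4-fold and 15 at least 16-fold, whereas the median change of all genes was 0.038 (0.14 within the shared slide). Over all genes, 2946 had an unadjusted p under 0.05. Without wild-type replicate 1 the count was 460 of 18815 (2.44%; 288 higher, 1.53%, and 172 lower, 0.914%), of which 172 were among the 214. Replicate 1 was the highest wild-type array for 42 of the 84 lower calls and the lowest for 44 of the 130 higher calls. Over all genes tested it was the highest for 48.6% of those lower in HESKOL and the lowest for 41% of those higher. With slide as a block the count was 3. All 214 kept their direction in both fits, but this was fixed in advance, because the groups of 3 did not overlap for any of them. Their median size within the shared slide was 1.87 with a median SE of 0.45, against 1.93 and 0.32 in the fit of all arrays. Other single arrays also moved the count: leaving out HESKOL replicate 1, 2 or 3 left 94, 33 or 75 calls, and leaving out wild-type replicate 2 left 122.

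**Figure D1:**
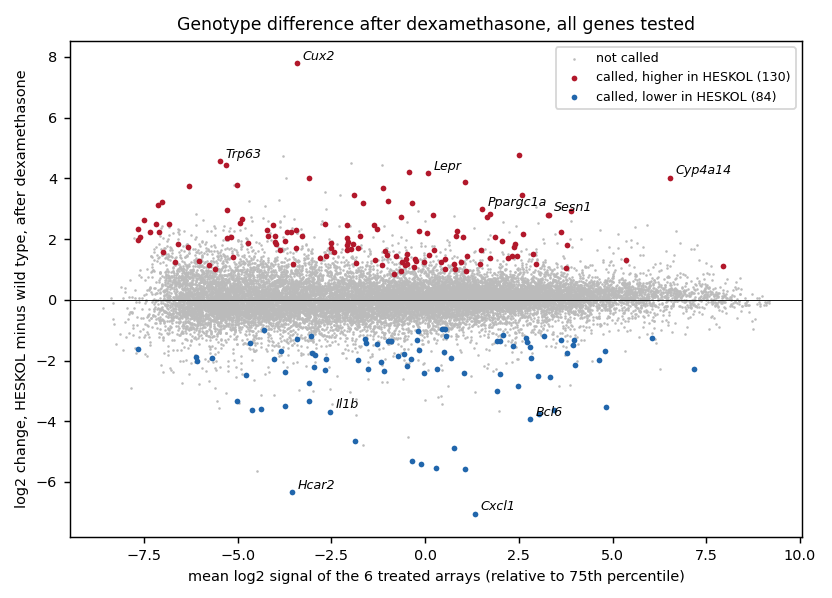
Each point is a gene or unnamed probe, with its mean log2 signal over the 6 treated arrays on the horizontal axis and its log2 change, HESKOL minus wild type, on the vertical axis. The 130 red and 84 blue points passed the test, and they are spread from dim to bright genes, with Cux2 at 7.79 and Cxcl1 at -7.05 at the ends.

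Cux2, a homeobox repressor that marks female mouse liver, had the largest fitted change. It read 0.40, -0.06 and 1.09 in HESKOL livers and -6.17, -8.61 and -7.14 in wild-type livers, where 1 of 3 arrays was well above background. Every HESKOL liver was far above every wild-type liver (change 7.79, SE 0.54, limma adjusted p = 0.000271), and both of its detected probes rose. With dim wild-type arrays raised to the dimmest probe that counted as above background, the difference was 7.03, about that of Cxcl1 below. It was also the only one of the 214 called with slide as a block (7.62, limma adjusted p = 0.0378). Without dexamethasone Cux2 read -3.39, -3.70 and -4.34 in HESKOL, against -7.72, -7.00 and -7.70 in wild type, a change of 3.66 (SE 0.54, limma adjusted p = 0.368) that did not pass over all genes.

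Other genes that growth hormone patterns by sex in the mouse liver also changed. Hsd3b5, a steroid dehydrogenase of male liver, fell to -2.23, -3.72 and -2.51 in HESKOL livers, against 3.63, 2.65 and 1.44 in wild-type livers (change -5.39, SE 0.98, limma adjusted p = 0.0334; -4.87 and 0.0506 without wild-type replicate 1). Its neighbour in function Hsd3b4 fell by 4.87 on the log2 scale over all arrays, with a limma adjusted p of 0.0725 without replicate 1, so neither of the 2 passed without that array. Both belong to a family of close copies, so their probes may read each other's RNA. Bcl6, a repressor that growth hormone and Stat5 hold down, read 0.91, 1.15 and 0.45 in HESKOL livers and 5.04, 5.53 and 3.77 in wild-type livers (change -3.94, SE 0.68, limma adjusted p = 0.0272). No HESKOL value reached a wild-type one for any of the 3 genes after dexamethasone, as their choice required.

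In the list of male-patterned genes, Hsd3b5 and Bcl6 fell (14.3% called, against 1.14% of all genes tested), none rose, and all 14 members tested had a negative estimate; without wild-type replicate 1 the only call was Bcl6. The list had a median of -0.79, against 0.038 for all genes; it was -1.24 without wild-type replicate 1, -1.01 within the shared slide and -0.89 in untreated liver. In the list of female-patterned genes Cux2 rose and none fell of 14 (7.14% called), with a median of 0.83 (0.84 without replicate 1, 0.67 within the slide, 0.75 untreated). Of these 14 genes, 10 had a positive estimate and 4 a negative one, the lowest -1.66. Slco1a1, a male-patterned organic anion transporter, changed by -2.23 (SE 0.61, limma adjusted p = 0.11), while its relatives Slco1a4 and Slco1a5 rose by 2.83 (SE 0.37) and 2.47 (SE 0.38). Esr1, the oestrogen receptor alpha, rose to 2.09, 2.53 and 2.31 in HESKOL livers, against 0.45, 0.70 and 0.82 in wild-type livers (change 1.65, SE 0.23, limma adjusted p = 0.0114). Akr1b7, an aldo-keto reductase, rose by 2.79 (SE 0.51).

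**Figure D2:**
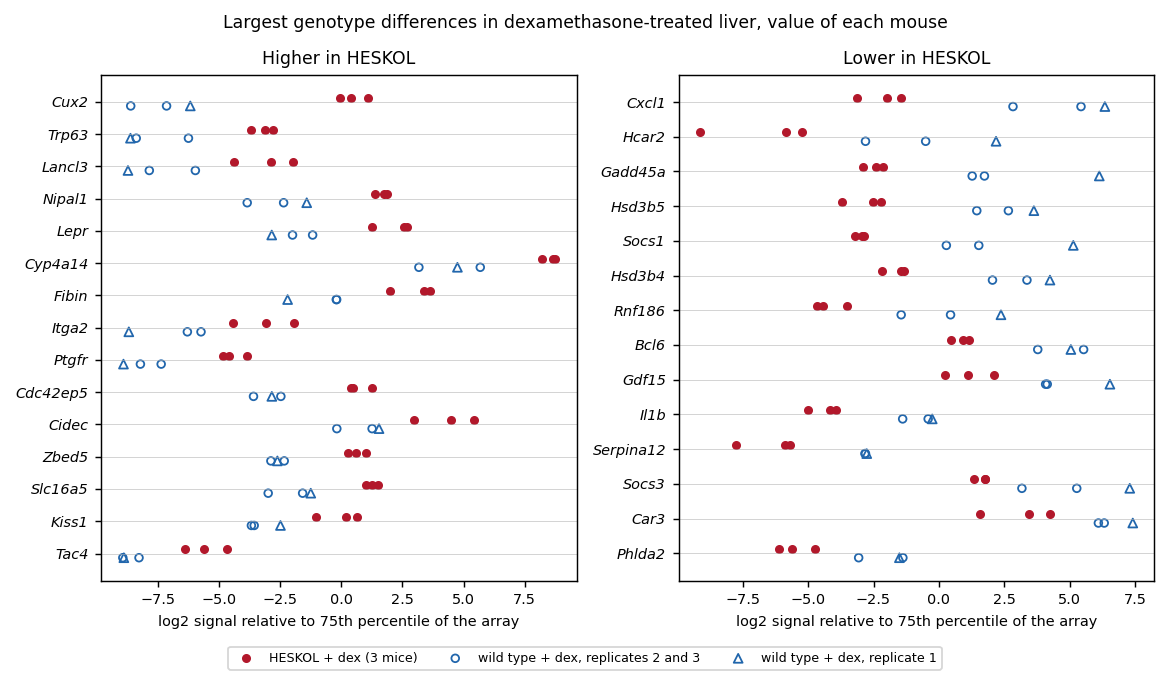
The 15 largest increases and 14 of the largest decreases among named genes, with the log2 signal of each treated mouse on the horizontal axis; red points are HESKOL, open blue circles wild-type replicates 2 and 3, and open triangles wild-type replicate 1. Lack of overlap between the groups was a condition for choosing these 29 genes. The triangle is the highest wild-type value for 12 of the 14 decreases, all but Bcl6 and Phlda2, and the lowest for 6 of the 15 increases. Over all genes tested, replicate 1 was the highest for 48.6% of decreases and the lowest for 41% of increases.

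Among genes of glucose output and use, Ppargc1a, a coactivator that drives fasting genes, rose to 2.87, 3.41 and 2.78 in HESKOL livers, against -0.34, -0.13 and 0.57 in wild-type livers (change 2.98, SE 0.33, limma adjusted p = 0.00316). It kept its call without wild-type replicate 1, with a change of 2.80. G6pc, the last enzyme of glucose output, read 6.29, 6.48 and 6.30 in HESKOL livers and 4.97, 5.08 and 3.81 in wild-type livers, but did not pass (change 1.73, SE 0.47, limma adjusted p = 0.107). Txnip, an arrestin that limits glucose uptake, rose by 2.22 (SE 0.33, limma adjusted p = 0.0139).

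By list, 1 of 15 gluconeogenesis genes rose (6.67%, against 1.14% of all genes tested) and none fell (median 0.39). Sesn1, a leucine-sensing stress protein that damps mTOR signalling, read 4.71, 4.87 and 4.50 in HESKOL livers and 1.91, 1.60 and 2.18 in wild-type livers (change 2.80, SE 0.21, limma adjusted p = 0.000271). Its spread within each group was small beside the gap between the groups. The related Sesn2 rose by 1.52 (SE 0.27), and these were the only members of 24 insulin and mTOR genes to pass (8.33%).

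Genes of fat burning had mostly positive changes and genes of fat synthesis mostly negative ones. Calls made up 13.6% of the first list and 10.5% of the second, against 1.14% of all genes tested. Both lists were chosen with earlier results of these data known, so these shares were not tested. Of 22 genes of fatty acid oxidation and its regulator Ppara, 3 rose and none fell, 19 had a positive estimate and the list had a median of 0.86 (0.88 without wild-type replicate 1, 0.79 within the shared slide). Cpt1a, which carries fatty acids into mitochondria, read 5.97, 6.09 and 6.00 in HESKOL livers and 4.82, 4.31 and 4.99 in wild-type livers (change 1.31, SE 0.22, limma adjusted p = 0.0272). Cyp4a14, a fatty acid hydroxylase that Ppara switches on, rose to 8.23, 8.66 and 8.75, against 4.75, 3.17 and 5.68 in wild-type livers (change 4.01, SE 0.77, limma adjusted p = 0.0396). The dehydrogenase Acadl rose by 1.03 (SE 0.21), and Cyp4a10, a close relative of Cyp4a14, changed by 2.15 (SE 0.52, limma adjusted p = 0.0749). Both groups were tight for Cpt1a, whereas wild-type livers were spread for Cyp4a14.

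Of 19 lipogenesis genes 2 fell and none rose, 15 had a negative estimate, and the median of -0.77 was -0.20 without wild-type replicate 1 and -0.40 within the shared slide. The calls were Mlxipl, the carbohydrate-response factor (-1.32, SE 0.24, limma adjusted p = 0.0317), and Elovl6, a fatty acid elongase (-1.52, SE 0.32, limma adjusted p = 0.0496). Srebf1, the insulin-driven activator of fat synthesis, read 2.63, 2.59 and 2.22 in HESKOL livers and 6.99, 5.57 and 3.25 in wild-type livers, the last on the shared slide. Its change of -2.79 (SE 0.69) had a limma adjusted p of 0.0814 and was -0.77 within that slide. Mid1ip1, which helps acetyl-CoA carboxylase to polymerise, fell by 2.43 on the log2 scale (SE 0.47, limma adjusted p = 0.0418), but its change was -1.05 within the shared slide and its limma adjusted p was 0.0583 without replicate 1. Acaca, the carboxylase itself, changed by -1.25 (limma adjusted p = 0.105). The 24 cholesterol synthesis genes held no limma call (8 had an unadjusted p under 0.05), and their median was -0.92 over all arrays, -0.19 without replicate 1 and 0.17 within the slide.

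Cidec, a lipid droplet protein, rose to 2.99, 5.44 and 4.50 in HESKOL livers, against 1.54, -0.18 and 1.26 in wild-type livers (change 3.43, SE 0.66, limma adjusted p = 0.0391). It is also a marker of adipocytes, of which 3 (Lep, Retn and Adrb3) were below background in all 6 livers; the summed signal of the 11 adipocyte markers other than Cidec was 15.4 to 38.3 times the 75th percentile in HESKOL livers and 15.9 to 21.9 times in wild-type livers, which overlap, and the part of these cells in the Cidec change was not tested. In bulk liver, fewer cells of a type and less RNA per cell cannot be told apart. Apoa4, a lipoprotein of fat export, rose by 2.79 (SE 0.57, limma adjusted p = 0.0467; 0.0718 without wild-type replicate 1). Of 26 amino acid and urea cycle genes none passed (limma), while 10 had an unadjusted p under 0.05. A positive estimate was found for 23, and the median was 0.60. The groups did not overlap for 14 of the 26, against 18.2% of all genes tested. Got1 (1.79, SE 0.45, limma adjusted p = 0.087) and Asl (1.32, SE 0.34, limma adjusted p = 0.0904) came nearest to passing.

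**Figure D3:**
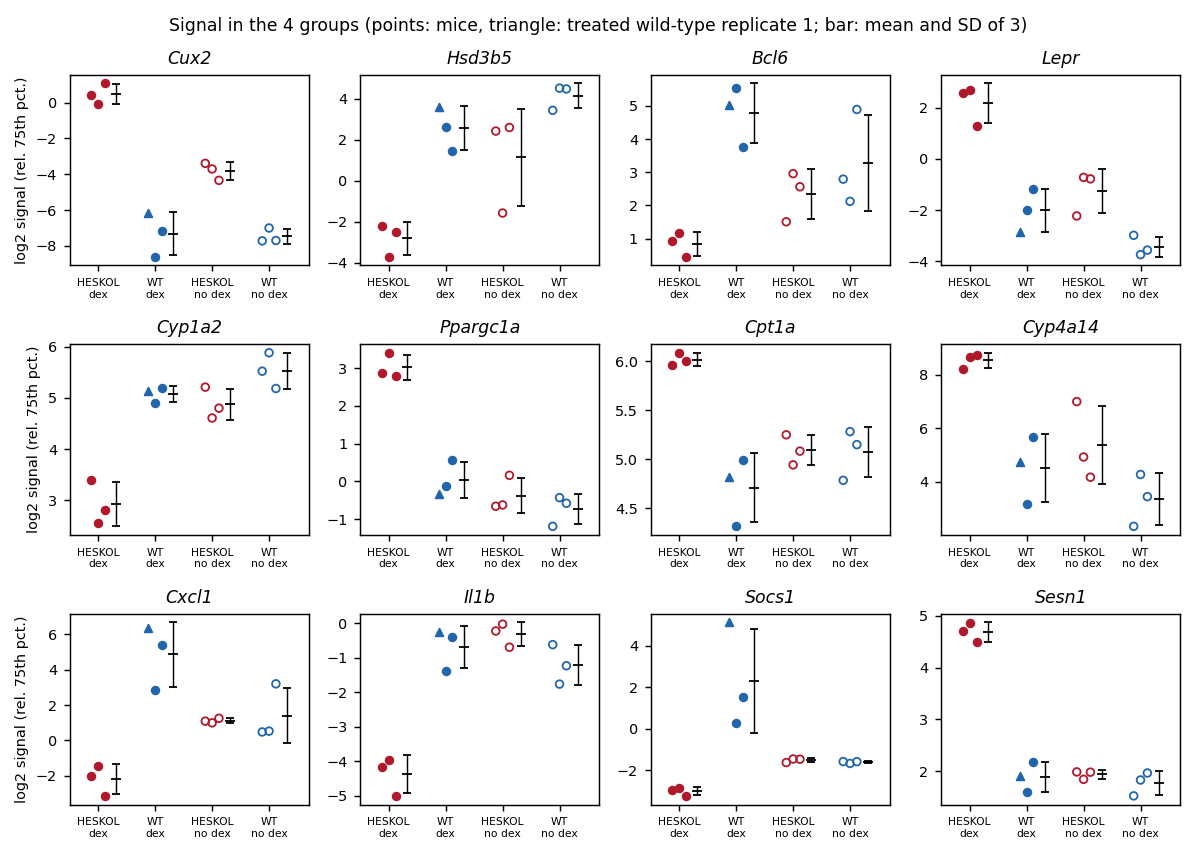
Log2 signal of each mouse for 12 genes in HESKOL and wild-type liver with and without dexamethasone, with the mean and SD of 3 beside the points and wild-type dexamethasone replicate 1 as a triangle. Ppargc1a, Cpt1a, Il1b, Cxcl1 and Sesn1 separate the genotypes after dexamethasone and lie close together or overlap without it, while all HESKOL points of Cux2 and Lepr lie above the wild-type points in both states. All HESKOL points of Hsd3b5 lie below the wild-type points in both states.

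Several cytokine signalling genes were lower in treated HESKOL than in treated wild-type liver, and wild-type replicate 1 had the highest value for several of them. Cxcl1, a neutrophil chemokine, read -2.00, -1.43 and -3.14 in HESKOL livers and 6.34, 2.83 and 5.43 in wild-type livers (change -7.05, SE 0.90, limma adjusted p = 0.0062). Il1b, the inflammatory cytokine interleukin 1 beta, read -4.15, -3.95 and -5.00 in HESKOL livers and -0.26, -1.39 and -0.41 in wild-type livers (change -3.68, SE 0.40, limma adjusted p = 0.00288). Every treated HESKOL liver was below every treated wild-type liver for both, as their choice required, and both passed without replicate 1 (-6.32 and -3.47). Their changes within the shared slide were -7.62 and -3.96. Without dexamethasone Cxcl1 averaged 1.11 in HESKOL and 1.40 in wild-type livers, between the treated means of -2.19 and 4.86. Il1b averaged -0.32 in HESKOL and -1.21 in wild-type livers without dexamethasone, against -4.37 and -0.69 with it.

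Socs1, an inhibitor of cytokine and growth hormone receptors, read -2.93, -2.86 and -3.23 in HESKOL livers, against 5.13, 0.28 and 1.52 in wild-type livers (change -5.32, SE 0.89, limma adjusted p = 0.0235). Without dexamethasone it averaged -1.51 in HESKOL and -1.61 in wild-type livers, between the treated means of -3.01 and 2.31. Replicate 1 stood far above the other wild-type livers, and without it the change was -3.91 (limma adjusted p = 0.000844). The SE of Socs1 pools the spread of the 4 groups, with an SD of 2.52 in treated wild type and 0.05 to 0.19 in the others, so it understates the spread of treated wild-type livers. The related Socs3 fell by 3.62 on the log2 scale (SE 0.75, limma adjusted p = 0.0496), or by 2.60 without replicate 1. Lepr, the leptin receptor, which signals through Stat3 and which Socs3 inhibits, went the other way: it read 2.55, 2.68 and 1.26 in HESKOL livers and -2.84, -1.99 and -1.17 in wild-type livers (change 4.17, SE 0.54, limma adjusted p = 0.00655). These were the 3 of 14 genes of leptin and interleukin 6 receptor signalling that passed. They made 21.4% of the list, against 1.14% of all genes tested, and the share was not tested.

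Further calls among cytokine response genes were Irf1, an interferon regulatory factor (-1.90, SE 0.39), Tnfaip2, a target of tumour necrosis factor (-1.70, SE 0.32; limma adjusted p = 0.051 without replicate 1), and Bcl3, a nuclear partner of NF-kappa B (-2.55, SE 0.42). Hcar2, a receptor for hydroxybutyrate and niacin, fell by 6.34 on the log2 scale (SE 1.18, limma adjusted p = 0.0356), and 2 of 3 HESKOL arrays were well above background for it. Tnfaip3 (-3.21, limma adjusted p = 0.0531), Nfkbiz (-3.42, limma adjusted p = 0.0663) and Cxcl10 (-4.79, limma adjusted p = 0.0914) did not pass over all arrays; without replicate 1 all 3 did, with smaller changes of -2.33, -2.25 and -2.93. In the NF-kappa B and cytokine list 2 of 20 fell (10%, against 1.14% of all genes tested) and none rose (median -1.04, or -0.76 without replicate 1). The chemokine list held 1 fall among 27 (3.7%, median -0.69, or -0.38), and the interferon list 1 among 27 (3.7%, median -0.45, but 0.10 without replicate 1 and 0.06 within the slide).

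Markers of neutrophils, which carry Il1b RNA, lay on the same side as these genes: all 13 had a negative estimate, none passed (limma; 0 had an unadjusted p under 0.05) or separated the groups, and their median change was -1.61 (-0.998 without replicate 1, -0.48 within the slide). Their summed signal was 12.6 to 102 times the 75th percentile in HESKOL livers and 87.0 to 201 times in wild-type livers. Kupffer cell and macrophage markers had 16 of 19 negative estimates, a median of -0.19 that was 0.21 without replicate 1, and summed signals of 132 to 282 in HESKOL livers and 167 to 389 in wild-type livers. The part of these cells in the cytokine results was not tested.

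Stress genes split. Gadd45a, a growth arrest gene, read -2.41, -2.14 and -2.91 in HESKOL livers and 6.12, 1.74 and 1.27 in wild-type livers (change -5.53, SE 1.01, limma adjusted p = 0.0344), or -3.99 without replicate 1. Its SE also pools the 4 groups, with an SD of 2.68 in treated wild type and 0.35 to 0.93 in the others. Gdf15, a stress hormone, averaged 1.15 in treated HESKOL and 4.91 in treated wild-type livers (change -3.77, SE 0.69), against 1.02 and -0.04 without dexamethasone. The death receptor Fas fell by 1.55, whereas Bbc3, a death-promoting Bcl2 relative, rose by 1.83 (SE 0.29). Together with Sesn1 and Sesn2 these made 3 rises and 3 falls among 18 p53 and stress genes. The calls were 33.3% of the list, against 1.14% of all genes tested, and the share was not tested. Atf3, an early stress factor, read -2.79, -2.79 and -2.51 in HESKOL livers and 5.50, 0.65 and -0.73 in wild-type livers, and its change of -4.50 (limma adjusted p = 0.105) was -2.66 (limma adjusted p = 0.0453) without replicate 1. None of 23 immediate early genes passed (limma; 9 had an unadjusted p under 0.05), with a median of -1.10 that was -0.40 without that array. The 24 genes of the unfolded protein response held no call either (limma; 7 had an unadjusted p under 0.05), with a median of -0.49, and -0.81 without replicate 1, when 2 fell.

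**Figure D4:**
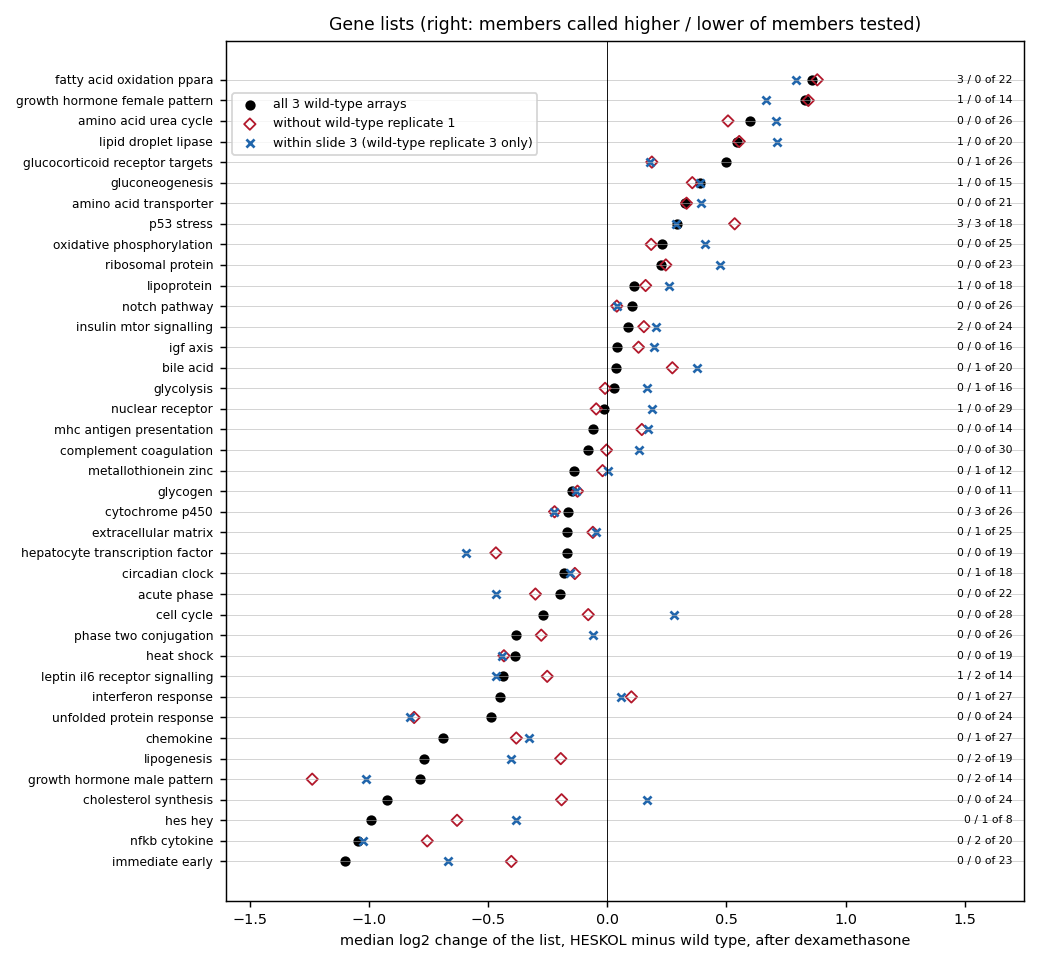
Median log2 change, HESKOL minus wild type, of the 39 pathway lists, as black points for all arrays, open diamonds without wild-type replicate 1 and crosses within the shared slide; the numbers at the right give members called higher, lower and tested. The fatty acid oxidation and growth hormone lists stay on their side of 0 under all 3, whereas the cholesterol, interferon and immediate early lists move toward or past 0 without that liver.

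Of 26 direct targets of the glucocorticoid receptor that were measured, 1 fell and none rose (3.85% called, against 1.14% of all genes tested). The fall was Bcl6. The median of the list was 0.50, or 0.19 without wild-type replicate 1 and 0.18 within the shared slide. Nr3c1, the receptor, read 2.14, 2.01 and 2.05 in HESKOL livers and 2.33, 2.37 and 2.37 in wild-type livers (change -0.30, SE 0.18, limma adjusted p = 0.466). Tat, the tyrosine aminotransferase that is a classical target in liver, read 8.60, 8.96 and 8.91 in HESKOL livers and 8.55, 8.75 and 8.55 in wild-type livers (change 0.20, SE 0.29, limma adjusted p = 0.787), so the groups were close and both high.

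For several targets 1 wild-type liver set the estimate. Fkbp5, a chaperone of the receptor complex, read 3.93, 2.48 and 3.28 in HESKOL livers and -0.998, 3.45 and 3.98 in wild-type livers, and replicate 1 lay below the untreated wild-type livers (-0.65 to 1.19). Fam107a, an actin-bundling protein, read 2.87, 2.35 and 2.90 in HESKOL livers and -1.90, 3.06 and 3.14 in wild-type livers. The change of Fkbp5 was 1.09 over all arrays and -0.48 without replicate 1, that of Fam107a 1.27 and -0.39, and that of Tsc22d3, the leucine zipper also called Gilz, 0.76 and -0.08; none passed in either fit. Angptl4, an inhibitor of lipoprotein lipase, read 7.64 to 8.32 in HESKOL livers and 4.12, 7.65 and 7.19 in wild-type livers, again lowest in replicate 1. Pdk4, a kinase that blocks glucose oxidation, changed by 2.36 (SE 0.56, limma adjusted p = 0.0713) and rose by 3.00 without replicate 1 (limma adjusted p = 0.0168). Dusp1, a phosphatase that ends MAP kinase signals, changed by -0.93 (limma adjusted p = 0.115).

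**Figure D5:**
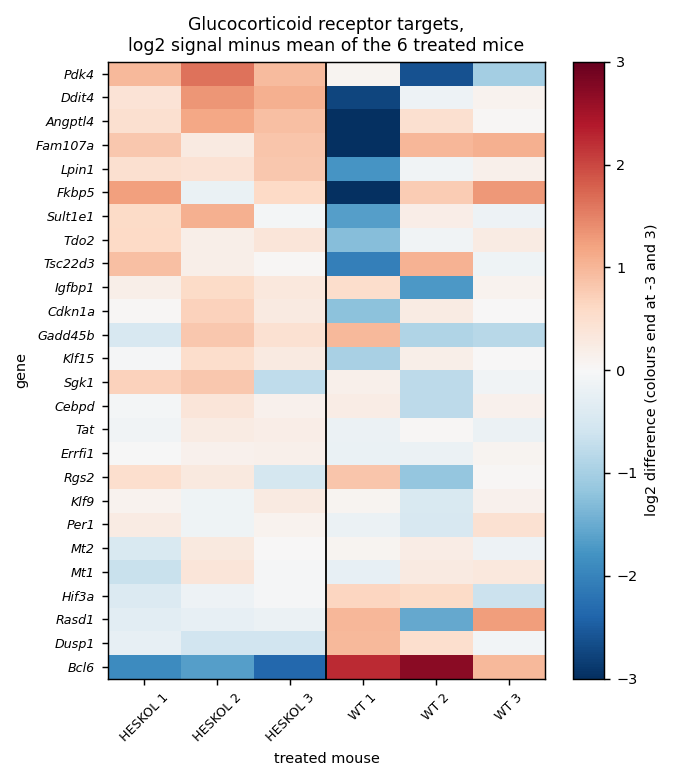
Log2 signal of 26 glucocorticoid receptor targets in each treated mouse, minus the mean of the 6 mice for that gene, with HESKOL at the left and wild type at the right. Wild-type replicate 1 is blue (low) for Fkbp5, Fam107a, Tsc22d3, Angptl4 and Ddit4, and Bcl6 is the only gene blue in all 3 HESKOL livers and red in all 3 wild-type livers.

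Among Hes and Hey factors and their helix-loop-helix relatives, 1 of 8 fell (12.5%, against 1.14% of all genes tested) and none rose. The list had a median of -0.99 (-0.63 without wild-type replicate 1, -0.38 within the slide). The call was Bhlhe40, a repressor of the circadian clock, at 1.14, 0.63 and 1.36 in HESKOL livers and 4.78, 3.59 and 3.30 in wild-type livers, with no overlap (change -2.85, SE 0.36, limma adjusted p = 0.00583). Its paralog Bhlhe41 changed by -3.55 (SE 0.85, limma adjusted p = 0.0738), and Hes6 by -1.41 (limma adjusted p = 0.143). Of 26 Notch pathway genes, from ligands to cofactors, none passed in either direction (limma; 2 had an unadjusted p under 0.05), and their median was 0.11. Notch4, the endothelial receptor, had the smallest p among them, with a change of 0.84 (SE 0.28, limma adjusted p = 0.183).

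Other large changes fell outside these lists. Trp63, the epidermal p53 relative, rose by 4.55 (SE 0.89, limma adjusted p = 0.0418), but 1 of 3 wild-type arrays was well above background, and without wild-type replicate 1 its limma adjusted p was 0.0647; within the shared slide the change was 3.05. Cdc42ep5, an effector of the GTPase Cdc42 whose promoter is shown above, read 0.48, 1.25 and 0.40 in HESKOL livers and -2.84, -3.59 and -2.47 in wild-type livers (change 3.68, SE 0.31, limma adjusted p = 0.000539), and its 3 probes gave nearly the same change. Ptgfr, the prostaglandin F receptor, was not well above background in any wild-type liver and was at least 4.85-fold higher in HESKOL (limma adjusted p = 0.0035), as was Tac4, a tachykinin, at least 2.20-fold (limma adjusted p = 0.0102). These bounds set the HESKOL mean against, on each wild-type array, the dimmest probe that counted as above background, or the probe itself where it was brighter. Kiss1, the kisspeptin precursor, rose by 3.19 (SE 0.57). Serpina12, the adipokine vaspin, read -5.69, -7.76 and -5.87 in HESKOL livers, where 2 of 3 arrays were well above background, and -2.76, -2.81 and -2.83 in wild-type livers (change -3.64, SE 0.45, limma adjusted p = 0.00583). Car3, a carbonic anhydrase of liver, muscle and fat, fell by 3.53 on the log2 scale (SE 0.61). Others of the 30 largest changes were rises of Lancl3 (4.43), Nipal1 (4.20), Fibin (3.86), the collagen-binding integrin Itga2 (3.76), Zbed5 (3.25) and Slc16a5 (3.19) and falls of Rnf186 (-4.66) and Phlda2 (-3.50). Of these, Lancl3 was well above background on 1 and Itga2 on 2 of the 3 wild-type arrays, and Lancl3 changed by 2.88 within the shared slide.

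The 4 calls in the lists of cytochrome P450 and bile acid genes were falls; Cyp4a14, described above, was not in them. Cyp1a2, which oxidises caffeine and many drugs, read 3.39, 2.55 and 2.82 in HESKOL livers and 5.14, 4.91 and 5.19 in wild-type livers (change -2.16, SE 0.27, limma adjusted p = 0.0062). With Cyp2c55 (-2.28) and Cyp2c70 (-2.28), which makes the muricholic acids of the mouse, these were the 3 falls among 26 cytochrome P450 genes, of which none in that list rose; the list median was -0.17. The 3 were 11.5% of that list, against 1.14% of all genes tested. Abcb11, the bile salt export pump, fell by 1.26 (SE 0.24) as the 1 call among 20 bile acid genes (5%).

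Without dexamethasone the same genotype comparison called none of the 18745 genes (limma; 296 had an unadjusted p under 0.05). Of the 214 genes called after dexamethasone, 147 had the same sign in untreated liver and 213 a smaller change there, with a median of 0.17 in the direction of the treated change. The 214 were picked for a large treated change, so a smaller untreated one was likely beforehand. Over all genes tested the median absolute change was 0.32 after dexamethasone, with wild-type replicate 1 included, and 0.15 without the hormone. Across all genes, which are not independent replicates, the treated and untreated genotype changes had a Pearson correlation of 0.13 and a Spearman correlation of 0.10. The difference between the treated and untreated genotype changes passed for 3 genes (limma, 0.016%; 1243 had an unadjusted p under 0.05), Sesn1, Phf11d and Il1b. Phf11d, a nuclear zinc finger protein, read 3.26, 2.98 and 2.82 in treated HESKOL livers and 0.15, 0.28 and 0.45 in treated wild-type livers, and it lay between -0.35 and 0.00 in untreated HESKOL and -0.24 and 0.17 in untreated wild-type livers. For Cux2 and Lepr this difference did not pass, with limma adjusted p values of 0.183 and 0.653, which does not show that the genotype change was equal with and without the hormone.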

How the data were processed

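Total RNA of 12 livers, 3 mice in each of 4 groups per the series design, was labelled with Cy3 (500 ng, per the labels' protocols), 1 mouse per array, on 3 slides of 4 arrays. The deposited values are intensities that the authors took, per the file headers, from version 9.5.3.1 of Agilent Feature Extraction, with background already removed; the deposited series table held the same intensity values, linear, not scaled between arrays and not centred. The array design is on mm7, per the file headers. Other steps are not given in the sources used here.

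Non-control spots (45018 less 1639) were scaled here as log2 signal minus the 75th percentile of the array; spots marked as outliers were left out. Of 41174 probes, 23082 were named by accession, 6582 by symbol, 3073 by synonym, 101 by the file alone and 8336 not at all. The brightest probe stood for its gene; 59 calls had several detected probes, which differed in sign for Kalrn, Ulk2 and 1 unnamed model. Tested genes had a probe marked well above background on each of the 3 arrays of at least 1 group. Fits were made with limma 3.58.1 in R 4.3.3 (lmFit, eBayes; 8 residual and 3.12 prior degrees of freedom) over 4 group means, and p-values were adjusted by Benjamini-Hochberg over all genes tested (threshold 0.05). The fit was tested on simulated data.

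The 51 gene lists and the members were chosen with earlier results of these data known, so no list was tested: counts and medians describe them, and 33 of 892 list genes were called (3.70%). Named genes are the 15 largest increases and decreases past the threshold without overlap, receptor targets, Hes, Hey and Notch genes, and up to 4 members of a list by p. Outside this rule, Phf11d, Txnip, Mid1ip1, Slco1a4, Slco1a5, Akr1b7, Bcl3, Hacl1, S1pr1, Abca2, Slc22a30, Fas, Kalrn and Ulk2 were chosen after their values were seen. A few genes picked by this rule are not reported here. Same-numbered treated arrays of the genotypes had correlations of 0.082, 0.015 and 0.15 in their deviations, so the numbers were not taken as pairs. Alternatives were other scalings, filters, probe choices, blocks and left-out arrays.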

Additional observations from a re-analysis of the deposited data

Results flagged for a closer look

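For 3 genes the genotype difference was not the same with and without dexamethasone, by limma's test of the difference itself over all genes. For Sesn1 the treated minus the untreated change was 2.63 (limma adjusted p = 0.0244): the genotypes differed by 2.80 after dexamethasone and by 0.16 without it. For Phf11d it was 2.83 (limma adjusted p = 0.0193), from changes of 2.72 and -0.11. For Il1b it was -4.57 (limma adjusted p = 0.0344), from -3.68 after dexamethasone and 0.89 without it. With slide as a block none of the 3 differences passed, and without wild-type dexamethasone replicate 1 and in the other fits that left out an array the count ran from 0 to 13.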

How the results depend on the processing

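With 3 arrays per group and brightness that differs between arrays, the count of calls moved with most settings. All 214 kept their sign wherever they were tested, except 1 of 209 under the most variable probe. With an array left out, array weights, slide as a fixed block or the treated arrays alone, the sign was fixed in advance. The HESKOL and wild-type values of the treated arrays did not overlap for any of the 214, so those fits could not turn a change around. In place of 214 calls (130 higher, 84 lower), normexp background correction with quantile normalization gave 332 (138 lower), unscaled deposited values 391 (331 higher, 84.7% of calls against 60.7%; it moved the median change of all genes to 0.20), no filter on dim probes 106 (65 and 41), slide as a fixed block 3 (2 and 1), array weights 3212 (1670 and 1542), the 6 treated arrays alone 8 (5 and 3) and an adjusted p under 0.01 27 (16 and 11). Leaving out single arrays gave 33 to 460 calls, 18 to 288 higher and 15 to 172 lower; untreated arrays enter only through the shared spread and the filter, and without wild-type untreated replicate 2 there were 85. Without wild-type dexamethasone replicates 2 and 3 the split was 59 higher with 63 lower and 119 higher with 147 lower. With the replicate number as a block there were 125 calls (80 and 45); the numbers did not pair the treated arrays. In place of 3 genes whose genotype change differed with treatment, there were 9 with normexp, 1 with the most variable probe, 6 with slide as a random block, 2343 with array weights, 0 with the deposited table, with slide as a fixed block or under 0.01, and 0 to 13 without single arrays. Quantile normalization, median scaling, other probe rules, kept outlier spots, the random slide block and an intensity trend left the count of calls within 1.5 times of 214.

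Of the 87 genes followed singly, 4 changed sign. Fkbp5 was -0.75 with slide as a fixed block, -0.21 with array weights and -0.48 without wild-type dexamethasone replicate 1 (up to 2.003 without single arrays). Fam107a was -0.43, -0.23 and -0.39 under the same 3 (up to 2.13), and Tsc22d3 was -0.58 with array weights and -0.083 without that replicate (up to 1.47). Kalrn was 0.76 with its most variable probe, which is a different probe. Cux2 passed under all 26 alternatives that tested it, and Sesn1, Phf11d and Cdc42ep5 under 26 of 27, the exception being slide as a fixed block. The causes were not tested.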

Other observations

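Of the 214 calls, 30 were made again in each of the 6 fits that left out 1 treated array and in each of the 6 that left out 1 untreated array, 17 higher and 13 lower in HESKOL, and 24 of them carry gene names. Beside Cux2, Sesn1, Phf11d, Cdc42ep5, Ppargc1a, Lepr, Cxcl1, Il1b, Bhlhe40, Cyp1a2 and Slco1a4 they include Hacl1, a peroxisomal lyase of fatty acid alpha-oxidation, at 0.53, 0.92 and 0.75 in HESKOL livers and -1.15, -2.65 and -2.17 in wild-type livers (change 2.72, SE 0.34, limma adjusted p = 0.00583). Untreated livers of both genotypes lay between 0.01 and 0.61 for Hacl1, so the treated wild-type livers were the low ones. S1pr1, a sphingosine phosphate receptor of endothelium, read -0.26, -0.33 and -0.25 in HESKOL livers and 1.65, 2.06 and 1.23 in wild-type livers (change -1.92, SE 0.22). Abca2, a lipid transporter, read -1.12, -0.95 and -0.88 in HESKOL livers and 0.67, 0.71 and 0.63 in wild-type livers (change -1.66, SE 0.17), and Slc22a30, an organic ion carrier, read 1.81, 1.56 and 1.90, against 4.14, 4.29 and 4.33 in wild-type livers (change -2.50, SE 0.25). For S1pr1, Abca2 and Slc22a30 the treated HESKOL livers were below all other livers.

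Calls of mineral and matrix genes were single: Slc30a10, a manganese exporter, fell by 1.85 on the log2 scale (SE 0.33) as the 1 call of 12 metallothionein and zinc genes (8.33%), and Col27a1, a fibrillar collagen, by 2.21 (SE 0.41) as the 1 call of 25 matrix genes (4%). Over all genes tested the share was 1.14%. None of 23 ribosomal protein genes, 25 oxidative phosphorylation genes, 28 cell cycle genes or 30 complement and coagulation genes passed (limma; 0, 1, 2 and 4 of them had an unadjusted p under 0.05).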
